A study of Mus musculus with 4 samples.

Results

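A set of 10 genes of the Notch pathway, chosen by name from the count tables, was followed in iMOPs, a mouse cell line derived from progenitors of the inner ear and made to divide indefinitely. They were the receptors Notch1, Notch2 and Notch3, the ligands Dll1, Dll3 and Jag1, the modifiers Lfng, Nrarp and Dtx4, and the nuclear mediator Rbpj. All 10 were among the 49997 genes listed, and 9 of them had enough counts to be tested. RNA was compared between 2 libraries labelled iMOP-derived neuron and 2 labelled proliferating, each pair numbered 1 and 2 and all with wild-type genotype. The neuron cultures were kept in Neurobasal medium supplemented with 1XN21 and L-glutamine, and contained 1 µM K03861, which blocks CDK2, a kinase that drives the cell cycle. The proliferating cultures were in DMEM/F12 with 1XN21, carbenicillin and 20 ng/ml of the growth factor bFGF. All 4 libraries came from 1 cell line, and the labels do not say that they came from separate cultures, so p-values measure only the spread between these libraries.

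Notch is a receptor that is cut when a ligand of the Delta or Jagged family on a neighbouring cell binds it. The freed intracellular part enters the nucleus, joins RBPJ and switches on genes of the Hes and Hey families, which hold back neuronal differentiation. In the developing inner ear, Delta ligands on early neuroblasts act in lateral inhibition, while Jag1 marks the prosensory region.

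Depth outside ribosomal RNA was low. Once 7 genes that collect ribosomal RNA reads had been removed, 3241915 and 617872 counts remained in neuron 1 and 2, and 292302 and 614465 in proliferating 1 and 2. Levels are given as CPM, in which counts of the tested genes are scaled to the same TMM-adjusted total in each library. A floor of 3 counts, the limit that a count of 0 allows, corresponds to 0.798 and 6.22 CPM in the neuron libraries and 9.76 and 5.50 CPM in the proliferating libraries. Both the division and the neuronal marker sums ran counter to the labels, although not every neuronal marker did. The groups are named here by their labels only. The 8 division markers summed to 1811 and 3615 CPM in the libraries labelled neuron, against 244 and 596 CPM in those labelled proliferating, and none of them was at 0 in any library. The 13 neuronal markers summed to 1513 and 1542 CPM in the neuron libraries, against 2547 and 2874 CPM in the proliferating libraries. Map2 gave 485 and 1018 of these CPM in neuron 1 and 2, and 1064 and 1447 in proliferating 1 and 2. Tubb3, Map2, Stmn2, Elavl3 and Elavl4 were lower in the neuron library of each number. Snap25 and Syt1 were too, but on only 4 and 1 counts in proliferating 1. Rbfox3 was higher in each, at 46.8 and 6.22 CPM against 13.01 and 3.67 CPM, but on 3 and 2 counts in number 2. Dcx was higher in the neuron library of number 1 only, and Mapt in that of number 2 only. Neuronal markers at 0 numbered 0 and 3 in the neuron libraries, and 3 and 0 in the proliferating libraries. The 3 at 0 were Nefl, Nefm and Gap43 in both cases. Of 8 otic progenitor markers, 5 stayed under 10 counts in all libraries, and Pax8 and Isl1 among them had no count in any library. Sox2 had 463 and 97 counts in the neuron libraries and 105 and 250 in the proliferating libraries. These were 123 and 201 CPM in the neuron libraries, against 342 and 458 CPM in the proliferating libraries. Eya1 had 45.77 and 14.51 CPM in the neuron libraries, against 26.03 and 31.18 CPM in the proliferating libraries. Dlx5 had 48.96 and 0 CPM in the neuron libraries, against 13.01 and 5.50 CPM in the proliferating libraries. Both were higher in neuron 1 than in proliferating 1. In number 2 Eya1 was lower in the neuron library, and Dlx5 had 0 and 3 counts, too few to compare. The 9 glial markers summed to 220 and 390 CPM in the neuron libraries, against 745 and 435 CPM in the proliferating libraries, with Sox10 at 0 throughout. These sums mixed opposite directions. Aqp4 had 73.7 and 336 CPM in the neuron libraries, against 52.1 and 5.50 CPM in the proliferating libraries. Olig2 had 31.9 and 14.5 CPM in the neuron libraries, against 221 and 308 CPM in the proliferating libraries. The 5 mesenchymal markers, with Col1a2 at 0 throughout, summed to 214 and 145 CPM in the neuron libraries and 254 and 486 CPM in the proliferating libraries. Pou3f4 alone gave 140.5 and 89.13 of these CPM in the neuron libraries, and 149.65 and 436.48 in the proliferating libraries. Pdgfra was lower in the neuron library of number 1 (68.39 against 100.85 CPM) and higher in that of number 2 (55.96 against 44.01 CPM). The 5 immune and 4 endothelial markers each summed to at most 16.6 CPM in any library, with C1qa, Pecam1 and Cdh5 at 0 throughout. The part of these cell states in the results was not tested. In bulk RNA, fewer cells of a type and less RNA per cell cannot be told apart.

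Promoter windows, from 250 bases before to 50 after the annotated start, were available for 9 of the 10 genes in RefSeq on build GRCm38.p6, and not for Dtx4. They were searched for TGGGAA, the core recognized by RBPJ, and for its reverse complement TTCCCA. Either was present for 2 of the 9 genes, Lfng and Rbpj, in 3 of 11 windows (27.3%), against 25.6% of all 32851 windows. The Rbpj windows overlapped and shared the same antisense match, so that site was counted in both. Both windows with a match on each strand are shown, with the 6 bases of each match in capitals. Beside them is that of Notch1, which held none. Of the 9 tested genes its RNA varied most like that of Lfng, which had 1 count in each library numbered 2. In Lfng (chr5:140607091-140607390, plus strand) the antisense match began at -135 and the sense match at -108. In Rbpj (chr5:53590096-53590395, plus strand) the sense match began at -149 and the antisense match at -65. The Notch1 window lay at chr2:26503773-26504072 on the minus strand. No pair of matches overlapped, and a match is a description of letters, not a binding site.
Lfng: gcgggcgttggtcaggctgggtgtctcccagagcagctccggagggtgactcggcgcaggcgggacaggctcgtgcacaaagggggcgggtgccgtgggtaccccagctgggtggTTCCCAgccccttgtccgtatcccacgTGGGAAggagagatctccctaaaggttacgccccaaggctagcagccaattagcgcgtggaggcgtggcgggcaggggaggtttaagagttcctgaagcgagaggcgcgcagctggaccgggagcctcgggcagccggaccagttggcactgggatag
Rbpj: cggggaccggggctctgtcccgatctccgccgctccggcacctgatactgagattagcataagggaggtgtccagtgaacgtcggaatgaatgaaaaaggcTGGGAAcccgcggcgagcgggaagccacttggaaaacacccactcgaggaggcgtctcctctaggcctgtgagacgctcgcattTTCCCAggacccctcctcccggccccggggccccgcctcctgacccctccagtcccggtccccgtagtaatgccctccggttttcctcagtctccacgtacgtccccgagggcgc
Notch1: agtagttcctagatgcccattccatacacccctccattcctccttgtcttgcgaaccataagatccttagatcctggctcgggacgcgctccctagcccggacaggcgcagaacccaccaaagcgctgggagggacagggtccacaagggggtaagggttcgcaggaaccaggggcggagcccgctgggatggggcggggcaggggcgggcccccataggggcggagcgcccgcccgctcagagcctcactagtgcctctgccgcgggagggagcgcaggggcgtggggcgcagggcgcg

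Across the 9 tested genes, 8 had a negative log2 fold change, neuron over proliferating, and Rbpj a positive one. Their median was -1.35, against -0.03 over all 9009 tested genes, of which 51.5% were negative. None of the 9 passed an adjusted p of 0.05 in edgeR's quasi-likelihood test with group alone, where each had an adjusted p of 1.00 and 0% of all tested genes passed. Unadjusted, 97 genes were under 0.05 in edgeR, 0 of them among the 9, and DESeq2 called 0 genes, with 190 under 0.05 unadjusted. With the library number as a factor, 0 of the 9 passed, against 0.966% of all tested genes, and 2 of the 9, Dll1 and Nrarp, had an unadjusted p under 0.05, as did 894 of all 9009. With a GC correction added to that fit, 0 of the 9 were under 0.05 unadjusted, against 583 of 9009. Without proliferating 1, 3 of 9 genes were negative and the median was 0.35, where the median of all genes was 0.39. The libraries numbered 1 and 2 differed strongly, as described further on, so each gene is also given within its number. Within-number values are log2 ratios from which the median over the tested genes was subtracted, with 95% intervals that cover counting error only.

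**Figure D1:**
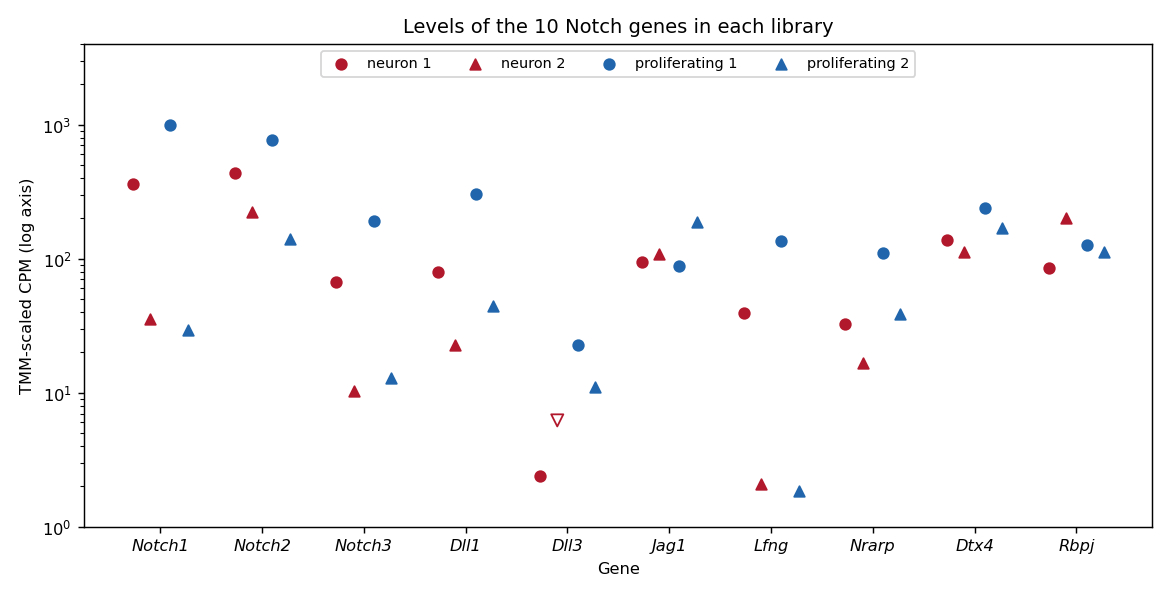
TMM-scaled CPM (log axis) of each of the 10 genes in the 4 libraries, with neuron libraries in red, proliferating libraries in blue, circles for number 1 and triangles for number 2. The open triangle for Dll3 marks the limit that 0 counts allow in neuron 2; Notch1, Notch2, Notch3, Dll1 and Lfng were higher in both libraries numbered 1 than in either numbered 2, while Rbpj was highest in neuron 2.

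Notch1, the founding receptor of the family (chromosome 2, 26457903 to 26516663 in mm10, minus strand), had 1358 and 17 counts in neuron 1 and 2, and 305 and 16 counts in proliferating 1 and 2. These were 361 and 35.2 CPM in the neuron libraries, against 992 and 29.3 CPM in the proliferating libraries. The groups overlapped, and the gap between the numbers was wider than that between the groups. Its log2 fold change was -1.35 (SE 1.46, 2 libraries per group). Within number 1 the log2 ratio was -1.49 (-1.67 to -1.31), and within number 2 it was 0.28 (-0.78 to 1.37), an interval that spans 0.

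Notch2 (chromosome 3, 98013527 to 98150361, plus strand), a second widely expressed receptor, had 1633 and 108 counts in the neuron libraries and 235 and 77 counts in the proliferating libraries. Its levels were 434 and 224 CPM in neuron 1 and 2, against 764 and 141 CPM in proliferating 1 and 2. Both neuron values lay between the proliferating ones. Its log2 fold change was -0.45 (SE 1.12), and within the numbers the ratio took opposite signs, -0.85 (-1.05 to -0.64) in number 1 and 0.69 (0.26 to 1.13) in number 2. Each of those counting intervals excluded 0.

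Notch3 (chromosome 17, 32120820 to 32166852, minus strand), a receptor best known from vascular smooth muscle, had 252 and 5 counts in the neuron libraries and 59 and 7 in the proliferating libraries. That gave 67.1 and 10.4 CPM in the neuron libraries, against 192 and 12.8 CPM in the proliferating libraries. As for Notch1, the highest value was in proliferating 1 and both libraries numbered 2 were low. The log2 fold change was -1.35 (SE 1.29), with ratios of -1.53 (-1.96 to -1.12) within number 1 and -0.25 (-2.28 to 1.59) within number 2. Notch4, the fourth receptor, had 9 and 0 counts in the neuron libraries and 1 and 0 in the proliferating libraries, too few to be tested.

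Levels of different receptors were compared per kilobase of gene length. Notch2 was at 41.4 and 21.3 CPM per kilobase in the neuron libraries and 72.8 and 13.4 in the proliferating libraries, and Notch1 at 38.1 and 3.71 in the neuron libraries and 105 and 3.09 in the proliferating libraries. Notch1 held 43.5% and 14.1% of the length-scaled receptor counts in neuron 1 and 2, against 52.2% and 17.1% in proliferating 1 and 2. The receptor mix therefore followed the library number: in the libraries numbered 1 neither Notch1 nor Notch2 led in both, and Notch2 led in both of those numbered 2. Within each number the Notch1 share was somewhat lower in the neuron library. As a share of receptor counts before scaling by length, Notch1 made up 41.8% (95% exact binomial interval 40.1 to 43.5) in neuron 1 and 13.1% (7.81 to 20.1) in neuron 2. The same share was 50.8% (46.8 to 54.9) in proliferating 1 and 16.0% (9.43 to 24.7) in proliferating 2, so the 2 intervals were apart in number 1 and overlapped in number 2.

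Dll1, a Delta ligand that activates Notch on neighbouring cells (chromosome 17, 15367354 to 15376872, minus strand), had 300 and 11 counts in the neuron libraries and 94 and 24 in the proliferating libraries. Its levels were 79.8 and 22.8 CPM in the neuron libraries, against 306 and 44.0 CPM in the proliferating libraries. The neuron library was the lower one in both numbers, although the groups overlapped. The log2 fold change of -1.73 (SE 1.15) was the most negative of the 9 tested. Within number 1 the ratio was -1.95 (-2.31 to -1.62) and within number 2 it was -0.88 (-2.10 to 0.16). With the number as a factor the value was -1.53 (SE 0.63, unadjusted p = 0.0172, adjusted p = 0.334 in edgeR), which did not pass.

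Dll3, a divergent Delta protein that inhibits Notch within its own cell (chromosome 7, 28293553 to 28302238, minus strand), did not pass the count filter. It had 9 and 0 counts in the neuron libraries and 7 and 6 in the proliferating libraries, or 2.40 and 0 CPM against 22.8 and 11.0 CPM. Within number 1 the interval of the log2 ratio was -4.88 to -1.62. In number 2 the neuron library was at 0, and its floor of 3 counts lay 1.77-fold below the proliferating value. That fold takes the proliferating count as exact and is not centred on the median of the tested genes. Both neuron values were below both proliferating ones, on very few counts.

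Jag1, the Jagged ligand of the prosensory region (chromosome 2, 137081456 to 137116644, minus strand), did not share the pattern of Dll1. It had 353 and 52 counts in the neuron libraries and 27 and 103 in the proliferating libraries, which gave 93.9 and 108 CPM in the neuron libraries and 87.8 and 189 CPM in the proliferating libraries. Only proliferating 2 stood out, on the high side. The log2 fold change was -0.46 (SE 0.96), with ratios of 0.06 (-0.50 to 0.69) in number 1 and -0.77 (-1.29 to -0.29) in number 2.

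Among the 5 Delta and Jagged ligands, scaled by length, Dll1 made up 50.6% and 35.4% of ligand counts in the neuron libraries, against 72.9% and 27.9% in the proliferating libraries. Jag1 made up 20.4% and 57.3% in the neuron libraries, against 7.17% and 41.1% in the proliferating libraries, so its share was higher in the neuron library of each number. As a share of ligand counts before scaling by length, Jag1 made up 41.5% (38.2 to 44.9) in neuron 1 and 78.8% (67.0 to 87.9) in neuron 2. That share was 19.3% (13.1 to 26.8) in proliferating 1 and 70.1% (62.0 to 77.3) in proliferating 2, so the exact binomial intervals were apart in number 1 and overlapped in number 2. Dll4, an endothelial and neural Delta ligand, had 29 and 0 counts in the neuron libraries and 9 and 12 in the proliferating libraries. Its ratio was -1.76 (-3.07 to -0.69) within number 1. In number 2 the neuron library was at 0, and its floor of 3 counts lay 3.54-fold below the proliferating value, taken as exact and without centring. Jag2, the other Jagged ligand, went the other way in number 1, with 159 and 3 counts in the neuron libraries and 3 and 2 in the proliferating libraries. It was not tested, and the interval of its log2 ratio within number 1 was 0.51 to 4.38.

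**Figure D2:**
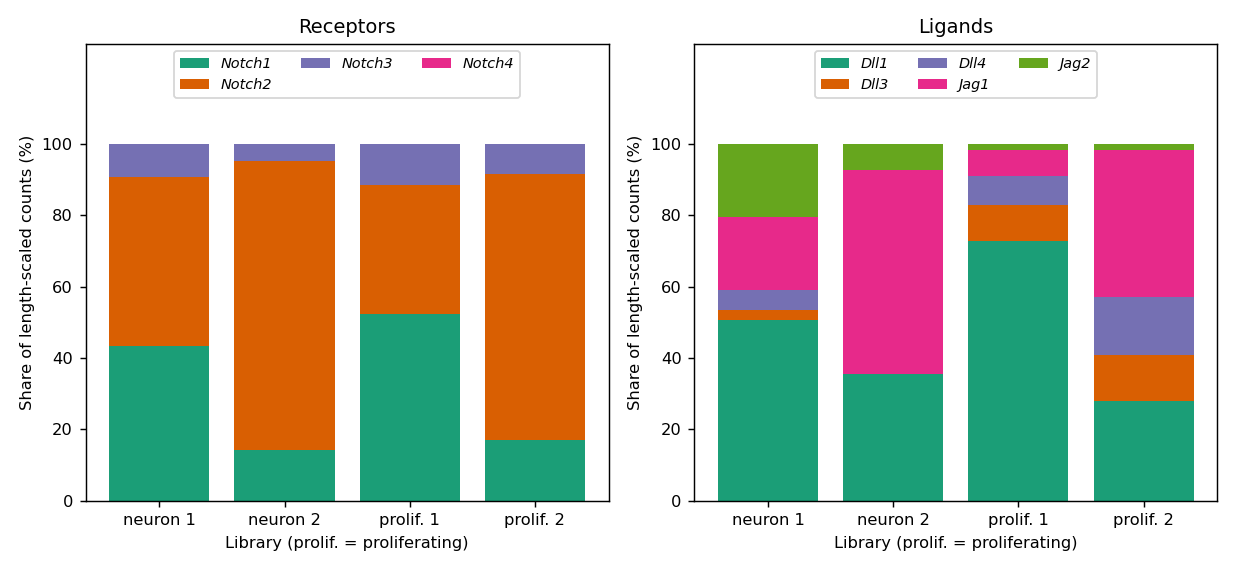
Share of length-scaled counts (%) held by each Notch receptor (left) and each Delta or Jagged ligand (right) in the 4 libraries, stacked to 100%. Notch2 filled 81.1% and 74.4% of the receptor bar in neuron 2 and proliferating 2, and Dll1 filled more of the ligand bar in proliferating 1 (72.9%) than elsewhere.

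Lfng, the fringe glycosyltransferase that adds sugar to Notch and shifts its response from Jagged to Delta ligands (chromosome 5, 140607320 to 140615545, plus strand), had 148 and 1 counts in the neuron libraries and 42 and 1 in the proliferating libraries. Its levels were 39.4 and 2.07 CPM in the neuron libraries, against 137 and 1.83 CPM in the proliferating libraries. Both libraries numbered 2 had 1 count, too few for a ratio. Within number 1 the ratio was -1.79 (-2.33 to -1.30), and the log2 fold change over all libraries was -1.64 (SE 1.56).

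Nrarp, a small ankyrin-repeat protein that Notch induces and that dampens Notch signalling (chromosome 2, 25180758 to 25183339, plus strand), had 122 and 8 counts in the neuron libraries and 34 and 21 in the proliferating libraries. It was at 32.5 and 16.6 CPM in the neuron libraries, against 111 and 38.5 CPM in the proliferating libraries. Both neuron values were below both proliferating ones. Its exons overlap those of another annotated gene, so reads may be shared. Its log2 fold change was -1.56 (SE 1.08), with ratios of -1.75 (-2.36 to -1.21) in number 1 and -1.12 (-2.57 to 0.04) in number 2. With the number as a factor it was -1.53 (SE 0.70, unadjusted p = 0.030, adjusted p = 0.416 in edgeR).

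Dtx4, a Deltex ubiquitin ligase that acts on Notch (chromosome 19, 12466338 to 12501454, minus strand), had 517 and 54 counts in the neuron libraries and 74 and 93 in the proliferating libraries. Its levels of 138 and 112 CPM in the neuron libraries also lay below the 241 and 171 CPM of the proliferating libraries. Its log2 fold change was smaller, at -0.72 (SE 0.94), and differed little between the numbers, with -0.83 (-1.19 to -0.47) and -0.57 (-1.09 to -0.08). Nrarp and Dtx4 were the 2 of 9 tested genes whose groups did not overlap, both lower in neuron, against 8.5% of all tested genes with both neuron libraries below both proliferating ones. Dtx4 was the only one of the 9 whose counting intervals lay below 0 in both numbers. The share of all tested genes with such intervals was not taken.

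Rbpj, the DNA-binding partner of cleaved Notch (chromosome 5, 53466152 to 53657362, plus strand), had 319 and 97 counts in the neuron libraries and 39 and 61 in the proliferating libraries. Its levels were 84.9 and 201 CPM in the neuron libraries, against 127 and 112 CPM in the proliferating libraries. The neuron libraries were the lowest and the highest of the 4, and reads may be shared with the pseudogene Rbpj-ps3. The log2 fold change was 0.25 (SE 0.97), and the ratios had opposite signs, -0.60 (-1.09 to -0.09) in number 1 and 0.86 (0.40 to 1.36) in number 2.

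Within number 1, 8 of the 9 tested genes had a negative ratio and 8 had an interval below 0. Within number 2, 5 of 8 ratios were negative, 2 intervals lay below 0 and 2 above it. The share of all tested genes with such intervals was not taken, so these interval counts have no background to be read against. Of the 8 genes with a ratio in both numbers, 4 (Notch3, Dll1, Nrarp and Dtx4) had a negative ratio in both and 4 had opposite signs. Over all 8295 genes with both ratios, 27.3% were lower in both and 55.4% had the same sign. Leaving out proliferating 1 changed the sign of Notch1, Notch2, Notch3, Dll1 and Lfng, at 2.79, 1.24, 1.65, 0.27 and 3.54. Jag1 changed sign without proliferating 2, at 0.23, and Rbpj without neuron 2, at -0.50. These values were not centred. In the same 3 fits the median of all tested genes was 0.39, 0.11 and -0.10, so Dll1 at 0.27 was still under it. Nrarp and Dtx4 kept a negative value whichever library was left out, but without proliferating 1 they were at -0.60 and -0.43, closer to 0 by over 1.5 times.

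**Figure D3:**
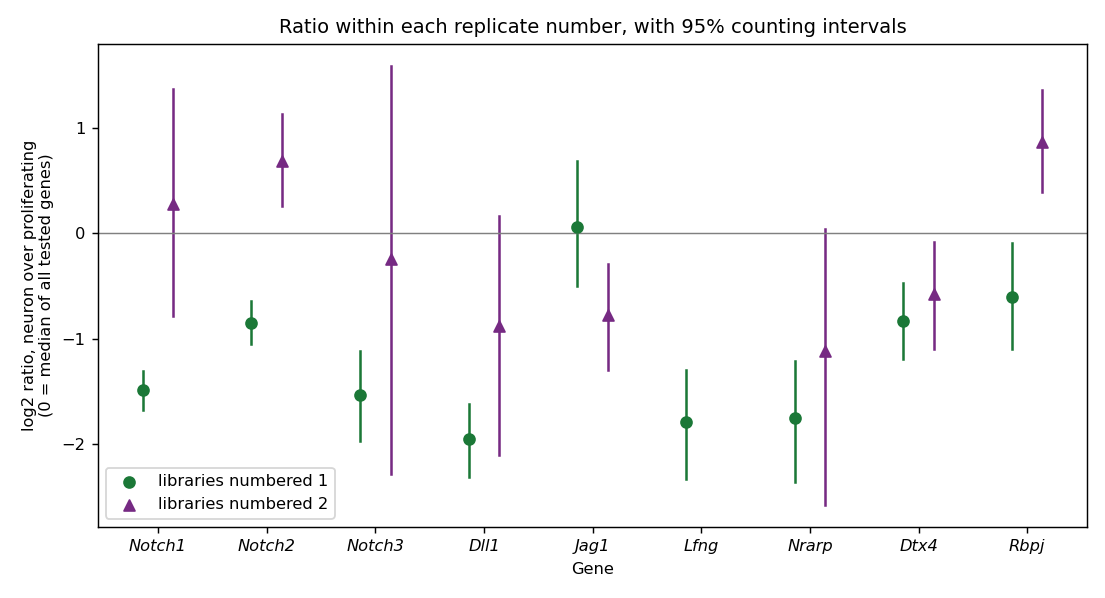
Log2 ratio of neuron over proliferating within the libraries numbered 1 (green circles) and within those numbered 2 (purple triangles), less the median over tested genes, with 95% intervals for counting error. Notch3, Dll1, Nrarp and Dtx4 were below 0 in both numbers, Notch1, Notch2, Jag1 and Rbpj had ratios of opposite signs, and no ratio is drawn for Lfng in number 2, where each library had 1 count.

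The largest differences among these genes lay between the library numbers. As log2 ratios of number 2 over number 1, the 9 genes spanned -3.48 to 1.24 in neuron libraries and -5.35 to 1.09 in proliferating libraries, and 7 of 9 were lower in number 2 in both groups, against 38.5% of all tested genes. Lfng and Notch1 were the lowest, and Jag1 and Rbpj were highest in the proliferating and in the neuron libraries. Lfng had 1 count in each library numbered 2, so its ratios here and its likeness to other genes below are only rough. The closest pair of the 9 over the 4 libraries was Notch1 and Lfng, with a root mean square difference of 0.178 on gene-centred log2 CPM, and the farthest was Jag1 and Lfng, at 2.63. From the wider pathway, Numbl, a gene for a Notch inhibitor of the Numb family, was the closest to both Notch1 (0.212) and Lfng (0.334). Numbl had 2 counts in each library numbered 2, so this likeness too is rough. Ncstn, a gamma-secretase subunit gene, was the closest to both Dll1 (0.444) and Nrarp (0.428). The coactivator gene Crebbp was closest to Dtx4 (0.177), Ep300 to Jag1 (0.296), Pofut1 to Notch2 (0.269) and the ubiquitin ligase gene Itch to Rbpj (0.200).

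These genes were rich in G and C, and the libraries differed in GC dependence. Transcript GC content was 59.7% for Notch3, 58.9% for Lfng and 56.4% for Notch1, against 48.8% for Jag1 and 43.4% for Rbpj. The members' median was 55.1%, against 49.2% for all tested genes, and 8 of the 10 genes were above 49.2%. Across 8655 tested genes, which are not independent replicates, the Spearman correlation of GC with the difference between number 2 and number 1 was -0.84 in the neuron and -0.65 in the proliferating libraries. Genes of at least 54% GC had a median log2 ratio of -2.36 between the neuron libraries and -2.22 between the proliferating libraries, number 2 over number 1. The neuron over proliferating ratio of such genes also had a median below 0, at -0.32 within number 1 and -0.67 within number 2. After a GC correction with the number as a factor, the median of the 9 genes was -0.44, against -0.74 without it, and 0 of 9 passed the test. The part of GC content in the differences between the groups was not tested beyond this correction. Dll1, Lfng and Nrarp stood at -1.19, -1.21 and -1.22 in that fit, Notch1 and Notch3 at -0.39 and -0.72, and Notch2 at 0.24. The correction turned the sign of Notch2 and of Rbpj, which stood at -0.41.

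**Figure D4:**
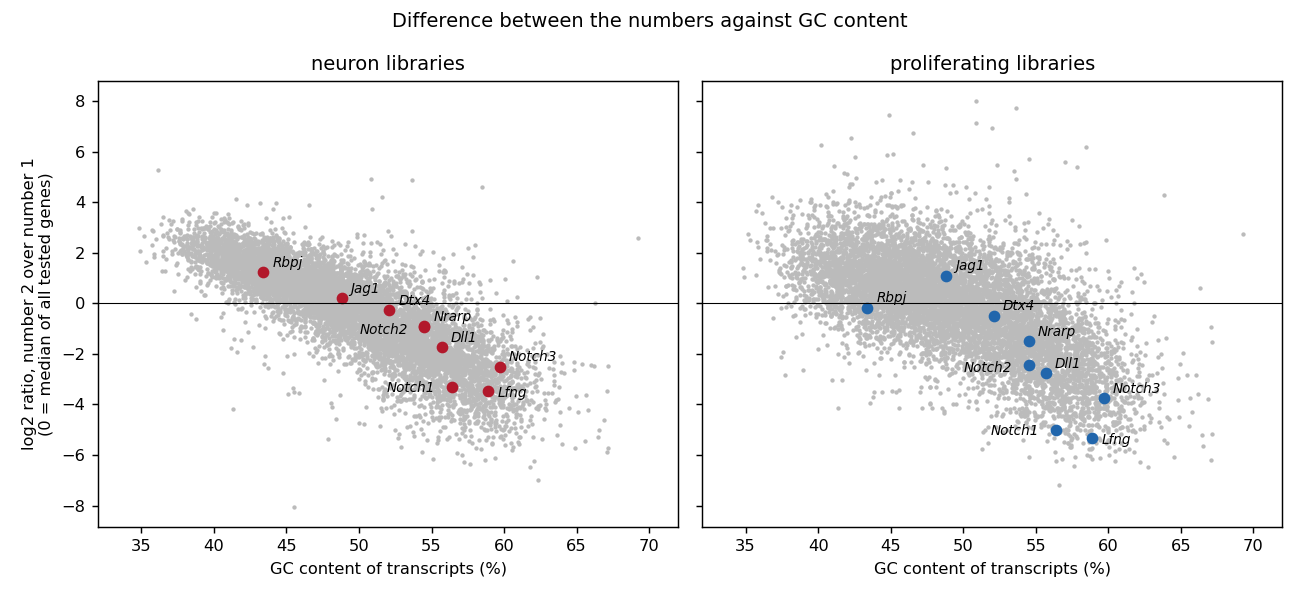
Log2 ratio of number 2 over number 1, less the median over tested genes, against transcript GC content (%), in neuron libraries (left) and proliferating libraries (right); grey points are all tested genes and red (neuron) or blue (proliferating) points the 9 tested Notch genes. The GC-rich Notch1 and Lfng were at -3.29 and -3.48 in neuron libraries and at -5.01 and -5.35 in proliferating libraries. Lfng had 1 count in each library numbered 2. Rbpj, at 43.4% GC, was at 1.24 in the neuron libraries.

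A list of 51 further Notch pathway genes was read from the same fits. Of these, 35 were tested, and 0 passed in either fit. In the fit with group alone 22 were negative and 13 positive, with a median of -0.37, against 51.5% negative over all tested genes. Of 29 with a ratio in both numbers, 14 were lower in the neuron library of both, 4 were higher in both and 11 had opposite signs. Over all genes with both ratios, 27.3% were lower in both and 28.1% higher in both. The list's median GC content was 53.1%, against 49.2% for all tested genes.

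Dner, a neuronal membrane protein with a Delta-like extracellular part, had 115 and 15 counts in the neuron libraries and 27 and 78 in the proliferating libraries. At 30.6 and 31.1 CPM in the neuron libraries it lay below both the 87.8 and 143 CPM of the proliferating libraries. Its ratios were -1.51 (-2.17 to -0.89) and -2.12 (-3.08 to -1.37), and with the number as a factor it was at -1.84 (SE 0.64, adjusted p = 0.174 in edgeR). Dll4 stood at -2.65 in that fit (SE 1.00, adjusted p = 0.247 in edgeR). It passed the count filter through the proliferating libraries alone, the group where it was higher. Its values are therefore no support for a difference. Of the other glycosyltransferase genes, Poglut1, which adds glucose to Notch, was at 0.42 (SE 0.98) with group alone and Pofut1, which adds fucose, at 0.02 (SE 1.16).

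Of the ubiquitin ligases that act on ligands, Mib1 had 468 and 1065 CPM in the neuron libraries, against 446 and 475 CPM in the proliferating libraries, and stood at 0.73 (SE 1.07) on the log2 scale. Mib2 had 33.3 and 0 CPM in the neuron libraries, against 52.1 and 3.67 CPM in the proliferating libraries, and stood at -0.61 (SE 1.68). The protease gene Adam10, whose product makes the first cut after ligand binding, was at 0.34 (SE 1.04). The coactivator genes Crebbp and Ep300 were lower in neuron within both numbers, with ratios of -1.05 and -0.62 for Crebbp and -0.74 and -0.77 for Ep300. The corepressor gene Ncor1 had a log2 fold change of 0.12 (SE 1.06). Fbxw7, which targets cleaved Notch for degradation, was at 0.15 (SE 0.96), and Aak1, a kinase of endocytosis, at 0.30 (SE 0.94).

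Among the Hes and Hey targets, Hes5 had 89 and 0 counts in the neuron libraries and 50 and 3 in the proliferating libraries. With group alone, Hes5, Hes1 and Hey1 had log2 fold changes of -2.67 (SE 1.60), -1.08 (SE 1.18) and -0.51 (SE 1.00). With the number as a factor Hes5 was at -2.91 (SE 0.88, adjusted p = 0.083 in edgeR), and with the GC correction besides at -2.45 (adjusted p = 0.324 in edgeR). Its 0 and 3 counts in number 2 are too few to compare. These values therefore rest on the libraries numbered 1, through which alone Hes5 passed the count filter.

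**Figure D5:**
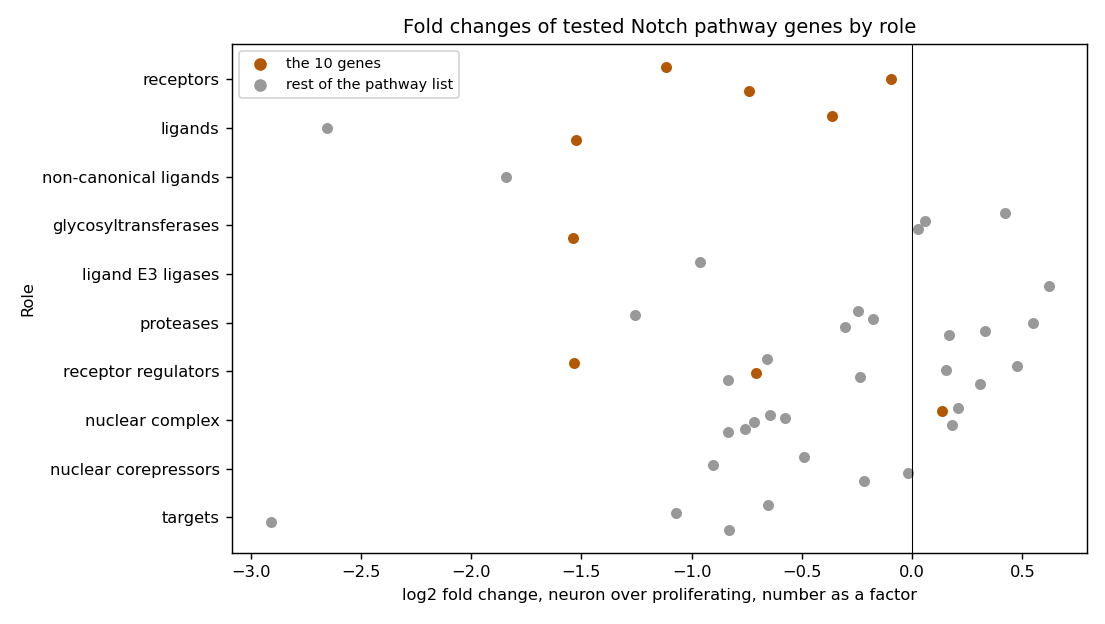
Log2 fold change, neuron over proliferating, of every tested gene of the pathway by role, from the fit with the number as a factor; orange points are the tested genes among the 10 and grey points those of the further list. All 4 tested targets (Hes1, Hes5, Hes6 and Hey1) and all tested receptors and ligands lay below 0, from -2.91 for Hes5 to -0.10 for Notch2. In the same fit 51.5% of all tested genes were below 0, and no point passed the test. Hes5 had 0 and 3 counts in the libraries numbered 2, and Dll4 passed the count filter through the proliferating libraries alone.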

How the data were processed

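Bulk RNA was measured in 4 libraries, 2 per group, grouped by their titles. Per the labels' protocols, DNase-treated total RNA was depleted of ribosomal RNA and made into stranded libraries. The submitters' processing notes name featureCounts, HISAT2, DESeq2 and SAMtools, with mm10 as genome build; settings, annotation and the strand setting of counting are not given in the sources used here. The authors deposited raw counts per gene and RPKM values, which scale counts by gene length and by a library total that includes ribosomal RNA. The gene length was recovered from both, with 1 value per gene within a relative tolerance of 0.001 for 6398 of 6398 genes checked.

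Genes that collect ribosomal reads (mt-Rnr1, mt-Rnr2, Rn18s-rs5, Gm15564, AY036118, Mir6236 and Lars2; 88.2% to 98.1% of counts) were removed before library sizes were taken. Counts were tested with edgeR 4.0.16 in R 4.3.3 (quasi-likelihood, TMM, filterByExpr), with Benjamini-Hochberg adjustment over all 9009 tested genes and a threshold of 0.05; SE came from the fold change and its F statistic. Lfng, Notch3, Numbl, Pofut1, Mib2 and Hes5 passed the filter through the libraries numbered 1 alone, and Dll4 through the proliferating libraries alone. Log2 CPM used a prior count of 2. No within-number ratio was taken where both libraries had 3 or fewer counts. For the genes of the lists, none was taken either where the neuron library had no count and the proliferating one more than 3. The shares over all genes keep genes of that kind. Intervals are exact binomial ones at 95% and cover counting error only. GC content came from GENCODE M21 transcripts and covered 96.1% of tested genes; the correction used a spline with 5 degrees of freedom per library. Both edgeR fits and the GC correction were tested on simulated data, where both fits recovered the direction of nearly all planted changes but the fit with group alone passed no planted change at the threshold, so that missing it there does not show that a gene was unchanged. The alternatives were another size factor, library totals alone, ribosomal genes kept, no filter, DESeq2 1.42.0, limma 3.58.1 on log2(RPKM + 0.1) and log2(RPKM + 1), the number as a factor, the GC correction and each library left out.

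The genes, lists and tests were chosen with earlier results of these data known. Named from the further list were genes past the threshold, of which there were 0, and the 2 tested genes of each role with the highest mean; Hes5, Jag2 and Notch4 were added after their values were seen. Some genes that the rule named are not reported here. Reads of antisense or overlapping genes could be assigned to either gene: exons of Notch1, Notch2, Notch3, Dll1 and Nrarp overlap other annotated genes, of which only 0610009E02Rik, overlapping Notch1, was in the count tables under that name, with at most 1 count. Reads may be shared between Rbpj and its pseudogene Rbpj-ps3, which had 53 and 3 counts in the neuron libraries and 10 and 11 in the proliferating libraries.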

Additional observations from a re-analysis of the deposited data

How the results depend on the processing

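Under all alternatives run, 0 of the tested genes among the 10 and 0 of the further list were called. Over all genes 0 were called with group alone. With the replicate number as a block, 58 genes were called higher and 29 lower, with DESeq2 size factors besides 23 and 9, and with the GC correction besides 9 and 9; the labels do not say what the shared number stands for, and no pairing was assumed, although deviations of same-numbered libraries from their group means correlated at 0.74 over the tested genes. The block and its DESeq2 form reversed Ncor1 (-0.017 and -0.030). GC correction with group alone reversed Notch2 (0.22), Rbpj (-0.51), Adam10 (-0.26) and Fbxw7 (-0.17); together with the block it reversed Notch2 (0.24), Rbpj (-0.41), Adam10 (-0.29), Ncor1 (-0.012) and Fbxw7 (-0.18). On log2(RPKM + 0.1), where the median of all genes was 0.81, values of the other sign were Notch1 0.050, Notch2 0.86, Jag1 0.65, Dtx4 0.37, Crebbp 0.27, Ep300 0.34, Hey1 0.41 and Hes1 0.35, all under that median except Notch2. On log2(RPKM + 1), with a median of 0.34, they were Notch2 0.29, Jag1 0.27, Dtx4 0.13, Crebbp 0.082, Ep300 0.17, Hey1 0.27 and Hes1 0.23. The causes were not tested.

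Leaving out each library in turn gave ranges of -3.94 to 2.79 for Notch1, -1.18 to 1.24 for Notch2, -3.35 to 1.65 for Notch3, -3.01 to 0.27 for Dll1, -0.89 to 0.23 for Jag1, -4.96 to 3.54 for Lfng, -2.22 to -0.60 for Nrarp, -0.94 to -0.43 for Dtx4 and -0.50 to 0.69 for Rbpj. They were -1.02 to 1.34 for Pofut1, -6.67 to 2.27 for Mib2, -0.86 to 0.95 for Adam10, -0.76 to 0.61 for Ncor1, -0.16 to 0.43 for Fbxw7 and -2.43 to 0.95 for Hes1. Without division by length, Jag1 made up 41.5% and 78.8% of ligand counts in the neuron libraries and 19.3% and 70.1% in the proliferating libraries. The number of genes lower within both numbers stayed at 4 with a prior count of 0.5 and without centring. Depth limited Dll3, Lfng and Notch3 most, with at most 7 counts in each library numbered 2.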
